A study of Homo sapiens with 10 samples.

Results

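The genes described here are 3 tissue inhibitors of metalloproteinases (TIMP1, TIMP2 and TIMP3) and 6 matrix metalloproteinases (MMP1, MMP2, MMP7, MMP9, MMP14 and MMP15). They were taken by symbol as 9 of the 20030 gene entries of a table of FPKM values (fragments per kilobase of transcript, scaled to sequencing depth) from human liver cancer cell lines. The table covers 10 RNA-sequencing libraries, 1 for each cell line and treatment. The combination of a CDK4/6 inhibitor with an XPO1 inhibitor was given to the lines PLC and 97H (2 libraries), as was the XPO1 inhibitor alone (2 libraries). The CDK4/6 inhibitor alone was given to Huh7, PLC and 97H (3 libraries), and vehicle served as the control in the same lines (3 libraries). CDK4/6 inhibitors block the cyclin D kinases that drive cells out of G1. XPO1 is the exportin that carries proteins with a nuclear export signal out of the nucleus, and the titles of the XPO1 inhibitor samples name KPT330, which is selinexor. The sources used here name neither the CDK4/6 inhibitor nor any dose or time.

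Matrix metalloproteinases are zinc endopeptidases that cut collagens, laminins, growth factor precursors and other proteins outside the cell. Most are secreted as inactive precursors, and a membrane-anchored branch that includes MMP14 and MMP15 works at the cell surface. TIMPs bind the active site and block it, and TIMP2 has a further role: it bridges MMP14 and the MMP2 precursor at the cell surface, so that a second MMP14 can activate MMP2. In liver, these genes are known from the matrix turnover of fibrosis and from the invasive growth of liver cancer.

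All 9 members are protein-coding genes, placed here with GENCODE 29 on GRCh38. TIMP1 lies at chrX:47582313-47586789 on the plus strand, inside the opposite-strand gene SYN1. TIMP2 lies at chr17:78852977-78925387 on the minus strand, and TIMP3 at chr22:32801701-32863043 on the plus strand, inside the opposite-strand gene SYN3. MMP7 (chr11:102520508-102530753) and MMP1 (chr11:102789920-102798160), both on the minus strand, belong to a cluster of 9 MMP genes on chromosome 11. MMP2 (chr16:55389700-55506691) and MMP15 (chr16:58025566-58046901) are on the plus strand of chromosome 16. MMP9 (chr20:46008908-46016561) and MMP14 (chr14:22836557-22849027) are on the plus strand. Whether reads were counted by strand is not given in the sources used here, so reads of overlapping genes could not be told apart. The overlapping genes in the table were low: SYN1 reached at most 0.656 FPKM, SYN3 0.122 FPKM and CEP295NL, which shares the TIMP2 strand and locus, 0.0937 FPKM. Other overlapping transcripts, all on the opposite strand, had no entry, so their levels are not known. They are AC022966.1 and AC100788.1 at TIMP2, AC007336.2 and MMP2-AS1 at MMP2, and SLC12A5-AS1 at MMP9.

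Promoter sequences of 5 of the 9 members (TIMP1, TIMP3, MMP7, MMP14 and MMP15) were matched by symbol in RefSeq, build GRCh38.p14. The 250 bases before the RefSeq start of 2 of them are shown 5′ to 3′ in the direction of the gene. The RefSeq starts lie inside the GENCODE genes given above, by 28 bases for MMP14, 6 for MMP7, 4 for TIMP3, 123 for TIMP1 and 188 for MMP15, and positions below count from the RefSeq start. MMP14 is shown because it passed the test in a treatment comparison, and MMP7 was added, after its values were seen, for its large difference between lines. Capitals mark matches on either strand to the AP-1 motif TGANTCA, the GC box GGGCGG and the TATA box motif TATAAA, which do not overlap here.
MMP14, chr14:22836335-22836584, plus strand: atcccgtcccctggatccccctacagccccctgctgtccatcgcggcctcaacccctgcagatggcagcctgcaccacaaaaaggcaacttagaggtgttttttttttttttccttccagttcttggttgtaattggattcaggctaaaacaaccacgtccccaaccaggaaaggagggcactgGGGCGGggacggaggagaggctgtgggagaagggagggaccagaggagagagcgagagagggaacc
MMP7, chr11:102530748-102530997, minus strand: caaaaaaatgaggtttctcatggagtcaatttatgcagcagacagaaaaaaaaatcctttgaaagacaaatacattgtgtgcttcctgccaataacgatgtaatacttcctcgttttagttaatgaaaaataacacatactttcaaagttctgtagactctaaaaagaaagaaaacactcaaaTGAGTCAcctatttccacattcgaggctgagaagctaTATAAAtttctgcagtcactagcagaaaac

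MMP7 had 1 match to TGANTCA, at 67 to 61 bases before the start, and 1 to TATAAA, at 30 to 25 bases before it, and no GC box. Among all 35116 promoters of the same length, 6.57% held TGANTCA, 10.7% held TATAAA and 42.6% held GGGCGG. MMP14 had 1 GC box, at 66 to 61 bases before the start, and TIMP1 had 2. TIMP3 and MMP15 had 5 GC boxes each. No match to TGANTCA or TATAAA lay in the windows of TIMP1, TIMP3, MMP14 or MMP15. GC content was 33.6% in the MMP7 window, against 56.8% for MMP14, 64.8% for TIMP1, 72.4% for TIMP3 and 74.8% for MMP15. These letter matches are descriptions, and nothing about binding was measured.

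The members differed in the lines that expressed them. TIMP2, MMP14 and MMP15 were read at 1 FPKM or more in every library, TIMP1 and TIMP3 were low in PLC, MMP1, MMP2 and MMP7 were read in 97H, and MMP9 reached that level in no library. The summed level of the 3 TIMPs was 283 FPKM with the CDK4/6 inhibitor and 71.8 FPKM in control in Huh7, 3.38 to 38.4 FPKM in PLC and 283 to 487 FPKM in 97H. The summed level of the 6 MMPs spanned a much narrower range, 214 and 101 FPKM in Huh7 with the CDK4/6 inhibitor and in control, 74.4 to 175 FPKM in PLC and 89.6 to 187 FPKM in 97H. A level of 1 FPKM or more was reached by 5 members in both Huh7 libraries, by 3 or 4 in the PLC libraries and by 8 in all 4 of the 97H libraries. The RNA came from whole cultures, so fewer cells with a transcript and less of it per cell cannot be told apart.

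**Figure D1:**
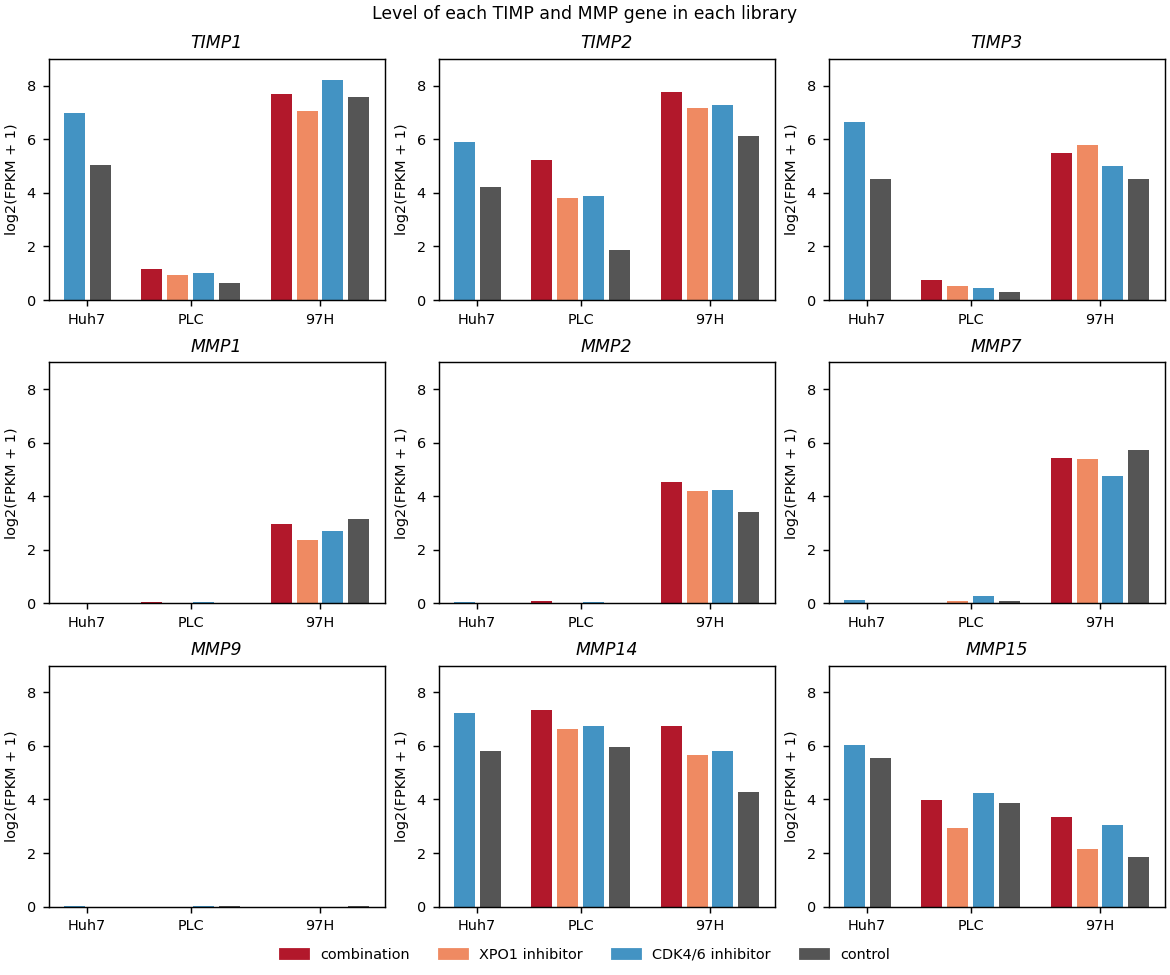
Level of each member in each of the 10 libraries as log2(FPKM + 1), with bars grouped by line (Huh7, PLC, 97H) and coloured by treatment, and no bar where a line had no such library. MMP1, MMP2 and MMP7 stand up in 97H alone, TIMP1 and TIMP3 are close to the axis in PLC, MMP9 is at the axis throughout, and MMP14 is high in all 3 lines.

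TIMP1, a secreted inhibitor that also acts as a growth factor, had 125 FPKM with the CDK4/6 inhibitor and 32.3 FPKM in control in Huh7. In PLC it had 1.23 FPKM with the combination, 0.898 with the XPO1 inhibitor, 1.01 with the CDK4/6 inhibitor and 0.541 in control. In 97H it had 208, 133, 299.8 and 193 FPKM in the same order. Every Huh7 and 97H library was above every PLC library, and in 97H TIMP1 stood between the 98.06 and 99.17 percentiles of all entries. Differences between lines were fitted with limma on log2(FPKM + 1) over all genes whose average reached 1 FPKM, with treatment as a term and Benjamini-Hochberg adjustment. The libraries of a line under its treatments were the repeats, so these p-values measure the spread between treatments within a line and not between separate cultures. TIMP1 averaged 0.920 FPKM in PLC, so it passed the filter of 1 FPKM through Huh7 and 97H only and had to differ from PLC. Its log2 differences of PLC against 97H (-6.72, SE 0.25) and of Huh7 against PLC (5.01, SE 0.38) are given as descriptions. Huh7 against 97H gave -1.71 (SE 0.38, limma adjusted p = 0.0065), a call lost without Huh7 control (limma adjusted p = 0.172).

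TIMP3, the inhibitor that stays bound to the matrix, showed the same low level in PLC. It had 100.1 FPKM with the CDK4/6 inhibitor and 21.8 in control in Huh7. In PLC it had 0.670, 0.451, 0.378 and 0.221 FPKM with the combination, the XPO1 inhibitor, the CDK4/6 inhibitor and in control. In 97H it had 43.7, 54.5, 30.9 and 21.7 FPKM in that order. All PLC libraries were under 1 FPKM, while the Huh7 and 97H libraries overlapped each other. TIMP3 thus also passed the filter through Huh7 and 97H only, and its differences from PLC are given as descriptions. The log2 difference was 5.37 for Huh7 against PLC (SE 0.44) and -4.69 for PLC against 97H (SE 0.29). Huh7 against 97H gave 0.68 (SE 0.44, limma adjusted p = 0.262), below its threshold, with a 95% interval of -0.30 to 1.66.

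TIMP2, the TIMP that pairs with MMP14, was read in all 10 libraries. It had 58.2 FPKM with the CDK4/6 inhibitor and 17.6 FPKM in control in Huh7. In PLC it had 36.5 FPKM with the combination, 12.9 with the XPO1 inhibitor, 13.98 with the CDK4/6 inhibitor and 2.62 in control. In 97H it had 219, 145, 156 and 68.4 FPKM in the same order. In each line the control was the lowest library, in PLC and 97H the combination was the highest, and all 97H libraries were above all others. TIMP2 differed by 1.96 in Huh7 against PLC (SE 0.34, limma adjusted p = 0.0020), by -1.44 in Huh7 against 97H (SE 0.34, limma adjusted p = 0.0087) and by -3.40 in PLC against 97H (SE 0.28, limma adjusted p = 2.1e-05). The second of these was lost without either Huh7 library (limma adjusted p = 0.0840 without the CDK4/6 inhibitor library and 0.0936 without control).

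Among the secreted proteases, MMP1 (interstitial collagenase), MMP2 (gelatinase A) and MMP7 (matrilysin) were read in 97H. MMP1 had 6.73, 4.14, 5.54 and 7.77 FPKM in 97H with the combination, the XPO1 inhibitor, the CDK4/6 inhibitor and in control, and at most 0.0234 FPKM in any other library. MMP2 had 21.8, 17.4, 17.7 and 9.57 FPKM in 97H in the same order, and at most 0.0686 FPKM elsewhere. MMP7 had 41.8, 41.0, 26.2 and 51.3 FPKM in 97H in that order, and at most 0.194 FPKM elsewhere. The lowest 97H library was above every Huh7 and PLC library for each of the 3 genes. They passed the filter on low values through 97H only and so had to differ; their fitted differences of PLC against 97H, -2.77 for MMP1, -4.05 for MMP2 and -5.22 for MMP7, are given as descriptions.

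MMP9, gelatinase B, was the one member that failed the filter on low values. It was listed at 0 in 6 of the 10 libraries and at 0.0183 to 0.0232 FPKM in the other 4, which were Huh7 with the CDK4/6 inhibitor, PLC with the CDK4/6 inhibitor, PLC control and 97H control. No test was made for it.

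The chromosome 11 cluster that holds MMP1 and MMP7 spans chr11:102520508-102955734 and has 9 protein-coding MMP genes in GENCODE 29. MMP1 and MMP7 were the 2 that reached 1 FPKM in 97H. MMP20, MMP27, MMP8, MMP10, MMP3, MMP12 and MMP13 lay under that level, and MMP10, which lies between MMP8 and MMP1, had the highest value among them (0.107 to 0.287 FPKM in 97H). MMP10 and MMP3 are the neighbours of MMP1 in the cluster, and MMP3 was listed at 0 in all 10 libraries.

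MMP14, the membrane-type protease that activates MMP2 and cuts fibrillar collagen, was high in every line. It had 149 FPKM with the CDK4/6 inhibitor and 55.8 FPKM in control in Huh7. In PLC it had 160.4 FPKM with the combination, 98.4 with the XPO1 inhibitor, 105 with the CDK4/6 inhibitor and 60.5 in control. In 97H it had 107, 49.9, 55.1 and 18.3 FPKM in the same order. As with TIMP2, control was the lowest library of each line and the combination the highest of PLC and 97H, but the lines overlapped. MMP14 stood higher in PLC than in 97H at each matched treatment (1.04, SE 0.22, limma adjusted p = 0.0050) and higher in Huh7 than in 97H (1.36, SE 0.27, limma adjusted p = 0.0037). Huh7 against PLC gave 0.32 (SE 0.27, limma adjusted p = 0.427). The PLC call was lost when libraries were scaled by median ratios (0.72, limma adjusted p = 0.0661), and the Huh7 call against 97H without the Huh7 CDK4/6 inhibitor library (limma adjusted p = 0.0693).

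MMP15, a related membrane-type protease, was ordered Huh7, PLC, 97H at each matched treatment. It had 65.4 FPKM with the CDK4/6 inhibitor and 45.5 FPKM in control in Huh7. In PLC it had 14.8, 6.68, 17.7 and 13.8 FPKM with the combination, the XPO1 inhibitor, the CDK4/6 inhibitor and in control, and in 97H 9.29, 3.40, 7.31 and 2.57 FPKM. The Huh7 libraries did not overlap the others, whereas PLC and 97H overlapped through the PLC library with the XPO1 inhibitor. The log2 difference was 3.13 in Huh7 against 97H (SE 0.35, limma adjusted p = 9.6e-05), 1.97 in Huh7 against PLC (SE 0.35, limma adjusted p = 0.0023) and 1.16 in PLC against 97H (SE 0.31, limma adjusted p = 0.0152). The second was lost without Huh7 control (limma adjusted p = 0.0599), and the third with median ratio scaling (0.88, limma adjusted p = 0.0563).

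Over the tested members, PLC against 97H called 8 of 8 at an adjusted p under 0.05 (2 higher in PLC, 6 lower), where 44.3% of all 10477 tested genes were called. Huh7 against PLC called 4 of 8 (all higher in Huh7), with 28.3% of all genes called, and Huh7 against 97H called 7 of 8 (2 higher, 5 lower), with 35.2% called. The 3 line comparisons share libraries. Of the 8 members, 3 passed the filter through 97H only, and TIMP1 and TIMP3 through Huh7 and 97H only. These counts are therefore descriptions. MMP14 and MMP15 had the opposite sign to the other 6 members in PLC against 97H.

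**Figure D2:**
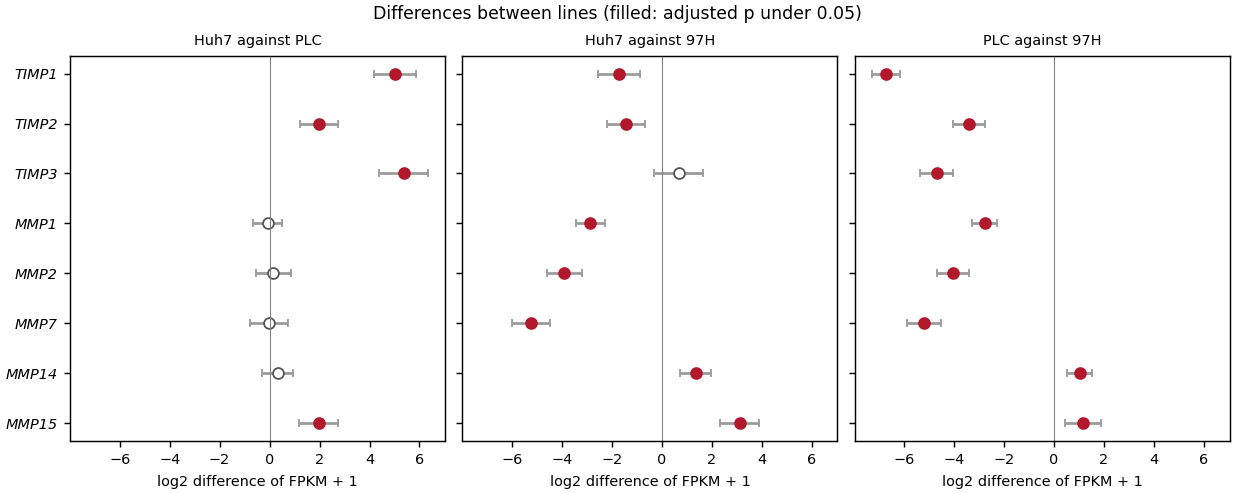
Fitted log2 difference of FPKM + 1 between lines for the 8 tested members, with 95% intervals, Huh7 against PLC, Huh7 against 97H and PLC against 97H; filled points had a limma adjusted p under 0.05. TIMP1 and TIMP3 lie far to the right in Huh7 against PLC, MMP1, MMP2 and MMP7 far to the left in both comparisons with 97H, and MMP14 and MMP15 right of 0 in PLC against 97H.

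Under the combination, TIMP2 and MMP14 rose and no member was called lower. Each treatment was compared with control by limma with the cell line as a block, so that each library was set against control of its own line; 8 libraries of PLC and 97H entered the fits with the XPO1 inhibitor. The line is the replicate, and p-values measure the spread of the effect between these lines. By FPKM, TIMP2 was 13.9-fold its control in PLC and 3.21-fold in 97H, a fitted log2 difference of 2.52 (SE 0.39, 95% interval 1.64 to 3.41, adjusted p = 0.0345), and stood 33rd of 10477 genes by p. MMP14 was 2.65-fold its control in PLC and 5.83-fold in 97H, a fitted log2 difference of 1.94 (SE 0.31, 95% interval 1.23 to 2.65, adjusted p = 0.0345), and stood 50th. TIMP2 thus moved more in PLC, where it started lowest, and MMP14 more in 97H, where it started lowest, a contrast that was not tested. All folds of a line rest on 1 control library. More genes rose by at least 1 on the log2 scale in PLC than in 97H with each treatment. The shares were 11.87% and 7.67% with the combination, and 16.51% and 2.15% with the XPO1 inhibitor. With the CDK4/6 inhibitor they were 18.22% and 2.36%.

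These 2 of 8 tested members compare with 83 of 10477 genes called in the combination, or 0.792%, of which 32 were higher and 51 lower. Both calls rest on few libraries: none of the members was called without PLC combination, without PLC control or without 97H combination, where the TIMP2 adjusted p was 0.278, 0.0926 and 0.151 and the MMP14 adjusted p 0.227, 0.0650 and 0.313. Without 97H control TIMP2 alone was called, and the MMP14 adjusted p was 0.0515. Both calls were also lost with no filter on low values (adjusted p = 0.354 for TIMP2 and 0.313 for MMP14), with a variance prior that did not follow expression (0.0632 and 0.0832) and without the line block (1 for both).

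The other 6 tested members did not pass the test under the combination. Their fitted log2 differences were 0.81 for MMP15, 0.71 for TIMP3, 0.59 for MMP2, 0.32 for TIMP1, -0.07 for MMP1 and -0.19 for MMP7. The median over the 8 members was 0.65, where the median over all tested genes was 0.07. MMP15 had a log2 difference of 0.10 in PLC and 1.53 in 97H. MMP2 was 2.28-fold and TIMP3 2.01-fold control in 97H, while both were under 1 FPKM in PLC, so that only 97H bears on them. A rise of at least 1 on the log2 scale was seen in 2 members in PLC and 4 in 97H, with 11.87% and 7.67% of all tested genes. No member was lower by as much in either line, where 7.46% and 4.92% of all tested genes were. TIMP1, TIMP3, MMP1, MMP2 and MMP7 were under 1 FPKM in PLC control, so with the pseudocount of 1 they could not fall that far.

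**Figure D3:**
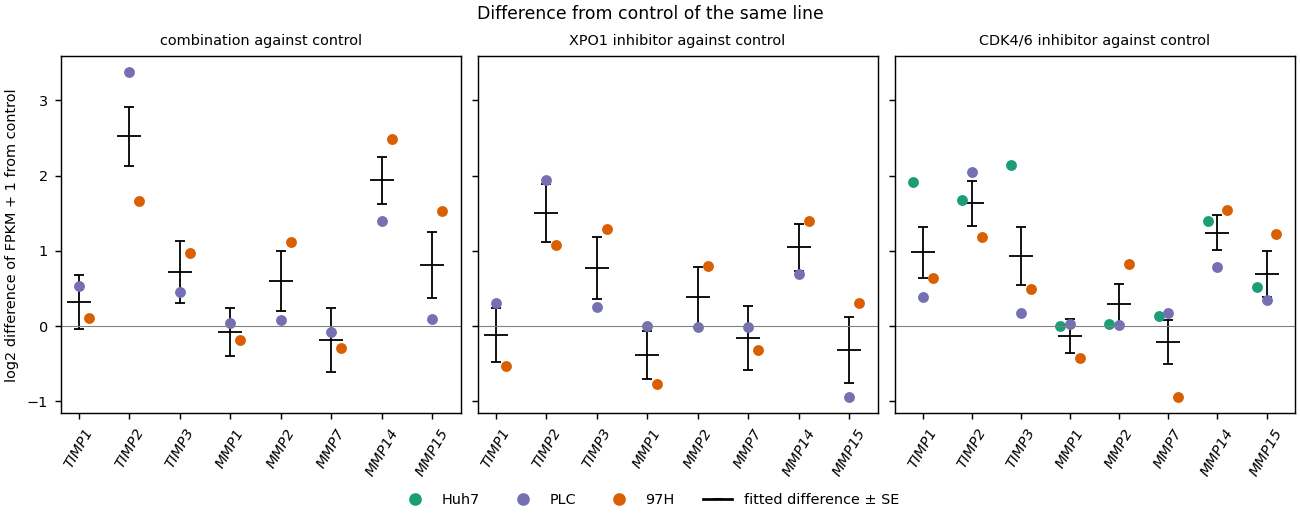
Log2 difference of FPKM + 1 from control of the same line for the 8 tested members under the combination, the XPO1 inhibitor and the CDK4/6 inhibitor; points are single libraries coloured by line, and bars the fitted difference ± SE. TIMP2 and MMP14 lie above 0 in every line and treatment, and MMP7 in 97H lies lowest under the CDK4/6 inhibitor, at -0.95.

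With the CDK4/6 inhibitor alone, the comparison over all 3 lines called no gene in the table (0% of 10477, with 922 at an unadjusted p under 0.05), and so none of the 8 members. The comparisons of the 3 treatments with control share the control libraries of PLC and 97H. TIMP2 was 3.31-fold its control in Huh7, 5.33-fold in PLC and 2.28-fold in 97H, a fitted log2 difference of 1.63 (SE 0.30, limma adjusted p = 0.461), and stood 5th of 10477 by p. MMP14 was 2.67-fold, 1.74-fold and 3.01-fold control in those lines, with a fitted log2 difference of 1.24 (SE 0.24, limma adjusted p = 0.461), and stood 7th. Both were higher than control in 3 of 3 lines.

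TIMP1 (0.98), TIMP3 (0.94) and MMP15 (0.69) also had positive fitted log2 differences with the CDK4/6 inhibitor and were higher in 3 of 3 lines. With TIMP2 and MMP14 they made 5 of 8 members at an unadjusted p under 0.05, where 922 of 10477 tested genes were. None of these members passed adjustment (limma adjusted p between 0.461 and 0.567). In PLC, TIMP1 had 1.01 FPKM and 0.541 FPKM in control, and TIMP3 0.378 and 0.221 FPKM. Both lie near the low end of the scale there, so mainly Huh7 and 97H bear on them. TIMP1 and TIMP3 were 3.86-fold and 4.58-fold control in Huh7 and 1.56-fold and 1.42-fold control in 97H, a contrast between lines that was not tested. MMP2 (0.29), MMP1 (-0.13) and MMP7 (-0.21) had small fitted differences. In 97H, where these 3 are read, MMP2 was 1.85-fold, MMP1 0.713-fold and MMP7 0.510-fold control.

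With the XPO1 inhibitor alone, again no gene was called (0% of 10477, with 258 at an unadjusted p under 0.05). TIMP2 was 4.91-fold control in PLC and 2.12-fold in 97H, with a fitted log2 difference of 1.504 (SE 0.39, limma adjusted p = 0.968). MMP14 was 1.63-fold control in PLC and 2.73-fold in 97H, with a difference of 1.05 (SE 0.31, limma adjusted p = 0.968). TIMP3 gave 0.77 (SE 0.41), with a 2.51-fold value in 97H. MMP15 was 0.486-fold control in PLC and 1.32-fold in 97H. TIMP1 had 0.898 FPKM and 0.541 FPKM in control in PLC, and was 0.690-fold control in 97H.

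The combination was also set against each inhibitor alone. Against the CDK4/6 inhibitor no gene was called (0% of 10477, with 345 at an unadjusted p under 0.05): TIMP2 gave 0.91 (SE 0.39, 95% interval 0.02 to 1.79) and MMP14 0.77 (SE 0.31, 95% interval 0.06 to 1.48), each with a limma adjusted p of 1. Against the XPO1 inhibitor no gene was called either (0% of 10477, with 520 at an unadjusted p under 0.05). TIMP2 gave 1.02 (SE 0.39), MMP14 0.89 (SE 0.31) and MMP15 1.13 (SE 0.44), with limma adjusted p of 0.896, 0.806 and 0.904. TIMP2 and MMP14 were highest with the combination in 2 of 2 lines, and these comparisons share the combination libraries.

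The interaction asks whether the combination differed from the sum of the single effects on the log2 scale, and called no gene (0% of 10477, with 60 at an unadjusted p under 0.05). TIMP2 gave -0.60 (SE 0.55, 95% interval -1.85 to 0.66) and MMP14 -0.27 (SE 0.44, 95% interval -1.28 to 0.73). Both intervals include 0.

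As TIMP2 and MMP14 act in one complex at the cell surface, their FPKM values were set side by side in each library. The TIMP2 to MMP14 ratio was 0.391 with the CDK4/6 inhibitor and 0.316 in control in Huh7. In PLC it was 0.228 with the combination, 0.131 with the XPO1 inhibitor, 0.133 with the CDK4/6 inhibitor and 0.0433 in control. In 97H it was 2.05, 2.90, 2.83 and 3.73 in the same order. MMP14 mRNA exceeded TIMP2 mRNA in every Huh7 and PLC library and TIMP2 exceeded MMP14 in every 97H library. The treated ratio was above control in Huh7 and PLC and below it in 97H, a contrast that was not tested. MMP2, the third partner, was read in 97H only, where TIMP2 was 7.14-fold to 10.05-fold its level.

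**Figure D4:**
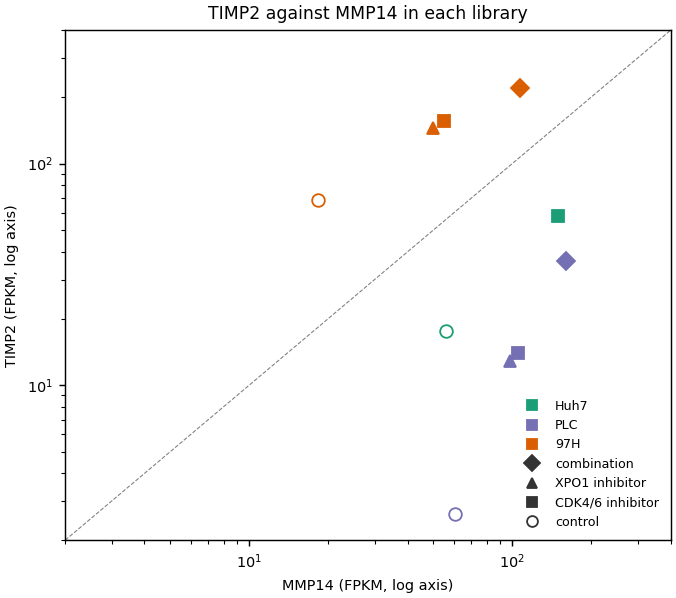
TIMP2 against MMP14 in each of the 10 libraries, both in FPKM on log axes; colours are lines, symbols treatments (open circles control), and the dashed line marks equal levels. Within each line the control lies lowest on both axes and the combination, where present, highest; all 97H libraries lie above the dashed line and all others below it.

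After removing each line's mean, the pair of members with the highest Pearson r of log2(FPKM + 1) over the 10 libraries was TIMP2 with MMP14 (0.85), followed by MMP2 with MMP14 (0.81) and TIMP3 with MMP14 (0.74). MMP7 had r between -0.49 and 0.02 with 6 of the other 7 members and 0.40 with MMP1. The libraries share their lines and treatments, so these values describe the libraries and carry no test. Outside 97H, MMP1 was at most 0.0234 FPKM, MMP2 0.0686 FPKM and MMP7 0.194 FPKM. Every r of MMP1, MMP2 or MMP7 given here therefore rests mainly on the 4 libraries of 97H. Of all tested genes, the closest to TIMP2 were PIP4K2C (0.993), MAP1LC3B (0.990) and CDKN1A (0.989), and the closest to MMP14 were CYSTM1 (0.987), CHMP4B and ITM2C (both 0.982). MAP1LC3B encodes an autophagosome protein and CDKN1A the cell cycle inhibitor p21. For MMP15 they were ATP6V0D1 (0.964), RILP (0.963) and TMEM150A (0.958). For TIMP1 they included EGFLAM (0.964) and TRPV2 (0.960), and for TIMP3 they were HTRA3 (0.964), ARSD (0.962) and MGLL (0.952). For MMP2 they were C17orf82 (0.988), PCED1B (0.984) and TMEM171 (0.983), for MMP1 LOC107986838 (0.927), MGST1 (0.923) and CLIP4 (0.896), and for MMP7 DNAAF2 (0.932), C3orf33 (0.889) and RHOBTB1 (0.888).

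The rest of the pathway was read from 6 lists of 85 genes, of which 47 passed the filter on low values. None of the 47 was called in any of the treatment comparisons. Under the combination 36 had positive and 11 negative differences, where the median over all tested genes was itself positive (0.07). The share of positive differences over all genes was not counted, and the 47 genes share libraries, so these signs are descriptions. Of 17 other MMP genes, 4 reached 1 FPKM in any library. MMP24, a membrane-type protease, had 30.5 FPKM with the CDK4/6 inhibitor and 14.2 in control in Huh7, 2.39, 1.30, 4.61 and 1.39 FPKM in PLC with the combination, the XPO1 inhibitor, the CDK4/6 inhibitor and in control, and 90.2, 44.5, 43.8 and 14.4 FPKM in 97H. MMP11 (stromelysin 3) had 64.7 and 20.5 FPKM in Huh7 with the CDK4/6 inhibitor and in control, and between 0.405 and 4.97 FPKM elsewhere. Their combination differences of 1.53 (limma adjusted p = 0.273) and 1.02 (limma adjusted p = 0.209) did not pass the test. MMP17 reached 2.31 FPKM in Huh7 and MMP28 1.496 FPKM in PLC.

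Of 5 other metalloproteinase inhibitors, 4 reached 1 FPKM and 3 were tested, with none called in a treatment comparison. TIMP4, the remaining TIMP, followed the line pattern of TIMP1 and TIMP3, with 15.4 and 6.24 FPKM in Huh7, at most 0.210 FPKM in PLC and 4.72 to 10.1 FPKM in 97H; it gave 0.61 under the combination (limma adjusted p = 0.507). A2M, the secreted protease trap alpha-2-macroglobulin, was high in Huh7 and PLC and low in 97H. A2M had 271 and 118 FPKM in Huh7, 81.8 to 385 FPKM in PLC and 0.361 to 0.751 FPKM in 97H. It passed the filter through Huh7 and PLC only, so its log2 difference of 7.14 for PLC against 97H is a description. RECK, a membrane-anchored inhibitor, reached 6.58 FPKM with the CDK4/6 inhibitor and 1.32 FPKM in control in Huh7, and TFPI2 2.18 and 0.643 FPKM. In 97H, TFPI2 had 1.11 to 1.74 FPKM, above its level in Huh7 control.

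In the list of MMP activation and the plasminogen system (11 genes, 7 tested), none was called under the combination. All 7 had positive differences, with a median of 0.28, against 0.07 over all tested genes. BSG, an inducer of MMPs in stromal cells, gave 0.44 (limma adjusted p = 0.603). Among the matrix and surface substrates (20 genes, 16 tested, none called), HSPG2 (perlecan) gave 1.84 (limma adjusted p = 0.186) and COL1A1 1.10 (limma adjusted p = 0.276). COL1A1 was at most 0.128 FPKM in PLC, so only 97H bears on its value. Among the ADAM and ADAMTS proteases (21 genes, 8 tested, none called), ADAM17 gave 0.73 and ADAM15 -0.56. Among the AP-1 and ETS factors, which are known to drive MMP promoters (11 genes, all tested, none called), JUN gave 1.61 (limma adjusted p = 0.162) and FOSB 0.76 (limma adjusted p = 0.298).

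The libraries differed by line more than by treatment. Pearson r of log2(FPKM + 1) between libraries lay between 0.922 and 0.980 for pairs of the same line and between 0.684 and 0.7996 for pairs of different lines. The number of genes above 0 was 14033 to 15264, lowest in PLC control. That library also had the highest summed FPKM over all entries, 377933, against 321388 to 356517 in the others. Every PLC fold over control is taken against it. Read depth is unknown, since the table holds FPKM and no counts. The summed level of 11 hepatocyte markers was 9253 and 6872 FPKM in Huh7 with the CDK4/6 inhibitor and in control, 843 to 2500 FPKM in PLC and 81.9 to 113 FPKM in 97H. The defining marker ALB had 1062 and 1261 FPKM in Huh7, and was low in both PLC (3.29 to 9.74 FPKM) and 97H (2.32 to 15.8 FPKM). The 4 cholangiocyte markers summed to 582 and 474 FPKM in Huh7 with the CDK4/6 inhibitor and in control, 14.5 to 29.7 FPKM in PLC and 427 to 673 FPKM in 97H. KRT19 made up most of the 97H sum, at 404 to 634 FPKM, and KRT7 was also higher there than in PLC. EPCAM went the other way, at 9.11 to 24.5 FPKM in PLC and at most 0.241 FPKM in 97H, and SOX9 overlapped between these lines. Endothelial markers summed to at most 4.94 FPKM and immune markers to at most 2.19 FPKM. The 8 fibroblast and stellate cell markers summed to 143.5 FPKM with the CDK4/6 inhibitor and 36.3 FPKM in control in Huh7, to 0.646, 0.511, 0.518 and 0.736 FPKM in PLC, and to 32.1, 8.38, 8.67 and 3.77 FPKM in 97H, in the order combination, XPO1 inhibitor, CDK4/6 inhibitor, control. None of the 8 was at 0 in every 97H library, but only 3 reached 1 FPKM there (LUM, COL1A1 and ACTA2). LUM led the sum with 26.0 FPKM in the combination and 3.17 in control. DCN, PDGFRA, PDGFRB and COL1A2 were at most 0.114 FPKM in 97H, and DCN and COL1A2 were lower with the combination than in control. The summed level of these markers was above control with each treatment in Huh7 and 97H, as were TIMP2 and MMP14. In PLC it was under 1 FPKM in every library, too low to be compared with TIMP2 and MMP14. The part of these markers in the results was not tested.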

How the data were processed

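Bulk RNA was sequenced from 10 libraries, 1 per cell line and treatment. The authors deposited 1 table of FPKM values per gene; per the submitters' processing notes CASAVA 1.8.2, STAR 2.4.2g1 and featureCounts of Subread were used with GRCh38. Libraries were prepared with a TruSeq RNA kit, per the labels' protocols; the sources used here give neither strand, annotation nor read depth, so no counting interval is given, and a fold change rests on FPKM. Groups came from the labels. The cell line is the replicate and pairs the treatments, because libraries of a line come from the same cells (1 library per treatment and line; separate cultures are not stated). Deviations of treated and control libraries of a line correlated at r = 0.665 to 0.901.

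From these values, 27 symbols turned into dates were restored. Genes with mean FPKM of at least 1 (10477 of 20030; 8 of 9 members) were fitted as log2(FPKM + 1) with limma 3.58.1 in R 4.3.3, with an expression trend of variance, two-sided, with line as a block and Benjamini-Hochberg adjustment over all tested genes. A pseudocount of 1 understates changes of low genes. The Huh7 libraries, which lack the combination and the XPO1 inhibitor, were left out of those fits. The fits were tested on simulated data. Members, lists and tests were chosen with earlier results of these data known. Named are all members, 2 genes per pathway list (smallest p in the combination), other MMP and TIMP-list genes reaching 1 FPKM, and the 3 genes most like each member. A few of these are not reported here. Alternatives covered the pseudocount, filter, normalization, variance prior, line block, GC content and length, the libraries fitted and leaving out each library. Sequences came from RefSeq. Python 3.11.15 and matplotlib 3.10.9 were used for summaries and plots.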

Additional observations from a re-analysis of the deposited data

Results flagged for a closer look

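In 11 of 40 pairs of a member and a comparison, the log2 difference of FPKM + 1 had opposite signs in the lines compared. Each line had 1 library per treatment, so none of these differences between lines was tested.

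For MMP15, the XPO1 inhibitor against control gave -0.94 in PLC and 0.30 in 97H, and the combination against the CDK4/6 inhibitor gave -0.24 in PLC and 0.31 in 97H. For TIMP1, the XPO1 inhibitor against control gave 0.30 in PLC and -0.53 in 97H, and the combination against the CDK4/6 inhibitor gave 0.15 in PLC and -0.52 in 97H. For TIMP3, the combination against the XPO1 inhibitor gave 0.20 in PLC and -0.31 in 97H. TIMP1 was at 0.541 to 1.23 FPKM and TIMP3 under 1 FPKM in PLC, so both lie near the low end of the scale there.

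For MMP7, the CDK4/6 inhibitor against control gave 0.13 in Huh7, 0.18 in PLC and -0.95 in 97H. Against the CDK4/6 inhibitor the combination gave -0.26 in PLC and 0.66 in 97H, and against the XPO1 inhibitor -0.073 in PLC and 0.027 in 97H. For MMP1, the combination against control gave 0.033 in PLC and -0.18 in 97H, and the CDK4/6 inhibitor against control gave 0 in Huh7, 0.033 in PLC and -0.42 in 97H. For MMP2, the XPO1 inhibitor against control gave -0.019 in PLC and 0.80 in 97H. These 3 genes were under 0.2 FPKM in Huh7 and PLC, so their values there are differences between levels close to 0. No treatment had more than 3 libraries, so none was searched for a single outlying library.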

How the results depend on the processing

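Of the members called in the combination against control (2), none was called with no filter on low values, with a variance prior without a trend or with no replicate block (0 each), and 0 to 2 were called with 1 library left out. Without the block, no gene of 10477 was called and the adjusted p was 1 for TIMP2 and MMP14. Genes called in that comparison numbered 83, against 6 with no filter, 27 without the trend, 153 with quantile normalization, 129 with median ratio scaling, 261 with all 10 libraries in the fit, 598 with GC content and length trends removed, and 0 to 184 with 1 library left out. The fitted differences of TIMP2 and MMP14 stayed positive in every fit of the combination against control, at 1.95 to 3.10 and 1.51 to 2.36 with 1 library left out.

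All values that reversed were of members not called in that comparison as reported. With a pseudocount of 0.1, MMP1 in the combination gave 0.050 and MMP7 with the CDK4/6 inhibitor 0.30. With 1 library left out, the combination against control gave -0.31 to 0.17 for MMP1 and -0.46 to 0.088 for MMP7. The CDK4/6 inhibitor against control gave -0.41 to 0.11 for MMP7, -0.24 to 0.025 for MMP1 and -9.79e-05 to 0.48 for MMP2. The interaction gave -0.70 to 0.15 for MMP14, and Huh7 against 97H gave -0.23 to 1.59 for TIMP3. Huh7 against PLC gave -0.13 for MMP14 with no treatment term. Members called in PLC against 97H numbered 6 to 8, in Huh7 against PLC 3 to 4 and in Huh7 against 97H 5 to 8 over all settings. With no treatment term, calls were lost for MMP14 in PLC against 97H (adjusted p = 0.0880) and Huh7 against 97H (0.257), and for TIMP2 in Huh7 against PLC (0.201) and Huh7 against 97H (0.0509). The MMP15 call in PLC against 97H was lost with no filter (0.0634), and TIMP3 in Huh7 against 97H was called with only the libraries compared (0.0103). Median ratio scaling moved the all-gene median of PLC against 97H to 0.005, against 0.26 as reported. Where an arm kept 1 library, it was assumed to vary like the others. With 2 or 3 lines per treatment, and depth unknown, effects of the size of the smaller differences could not be resolved.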
